A study of Mus musculus with 3 samples.

Results

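Peaks of Argonaute 2 (Ago2) that lay inside the protein-coding part of mRNAs made up 68857 of the 2039384 peaks found by Ago2 HITS‐clip in N2A cells. A peak was counted as coding when its central part, the deposited interval without its outer 30 nt on each side, lay wholly in annotated coding sequence of a protein-coding gene on the same strand and touched no annotated 3′UTR. N2A is a mouse neuroblastoma line, studied here without treatment (basal), and the labels name no genetic change. The 3 libraries, replicates 1 to 3, formed 1 group, so every comparison is between libraries, strands or parts of transcripts. Each was made from cells that received ultraviolet light at 400 mJ/cm2 and then 2 times at 200 mJ/cm2. As a line grown in culture, N2A stands for 1 tumour-derived neural cell and not for neurons in tissue. Nothing in the labels says that the replicates were separate cultures.

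Ago2 is the protein that carries a microRNA (miRNA) to its targets. The miRNA pairs with the mRNA mainly through its seed, the bases at positions 2 to 8 from its 5′ end, and the bound mRNA is then repressed or degraded. Most studied sites lie in 3′UTRs, where ribosomes do not pass. Sites in coding sequence are known as well and are crossed by translating ribosomes. Among them is a set of let-7 sites in the mRNA of Dicer1, the enzyme that cuts miRNAs out of their hairpins, and sites in a number of zinc finger genes such as Rbak.

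The sequences that carry the seed results are shown first. They are the mature miRNAs of the families with the 5 highest and 3 lowest densities of seed matches inside coding peaks, of miR-21a-5p, whose targets the study followed up, and of the other families with a site printed below. They come from RefSeq (GRCm38.p6), run 5′ to 3′, and have the seed in capitals.
let-7a-5p: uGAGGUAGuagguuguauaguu
miR-92a-3p: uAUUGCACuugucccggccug
miR-17-5p: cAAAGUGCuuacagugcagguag
miR-130a-3p: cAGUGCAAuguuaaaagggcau
miR-19b-3p: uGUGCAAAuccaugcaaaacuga
miR-15a-5p: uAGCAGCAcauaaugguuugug
miR-27a-3p: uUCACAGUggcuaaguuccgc
miR-24-3p: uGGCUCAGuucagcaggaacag
miR-21a-5p: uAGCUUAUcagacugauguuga
miR-22-3p: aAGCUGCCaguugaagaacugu
miR-127-3p: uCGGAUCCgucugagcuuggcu
miR-451a: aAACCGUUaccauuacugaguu
Each name stands for all miRNAs with that seed. None of the 12 seeds printed here is shared by 2 of these miRNAs.

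Coding sites that all 3 libraries covered are shown next. They are matches to a whole seed followed by A (8mer sites) that lay inside a stretch covered by coding peaks in every library. The 12 in the shortest such stretches (leaving out a let-7 site of Smad7, whose sequence is not shown) and the site of Dicer1 are printed as 30 nt of the mRNA strand, 5′ to 3′, from GRCm38, with the 8 bases of the site in capitals.
Jarid2, let-7, chr13:44911194-44911223, plus strand: catggtcttttCTACCTCAtgctggtctcg
Trp53bp2, miR-15, chr1:182452723-182452752, plus strand: cccccttgcttTGCTGCTAgattcatctct
Jarid2, miR-27, chr13:44902311-44902340, plus strand: caccatccaaaACTGTGAAgtacactgcca
Usp34, miR-24, chr11:23364219-23364248, plus strand: ggtttttaataCTGAGCCAttgccatctgt
Vps54, let-7, chr11:21277768-21277797, plus strand: gaattgcaggaCTACCTCAagaaaactacc
Fbn1, let-7, chr2:125301628-125301657, minus strand: tatgacaaagaCTACCTCAgtggtgaactg
Ostm1, let-7, chr10:42698210-42698239, plus strand: cctgtcgtcttCTACCTCAgtagcttcctt
Trpm7, miR-130, chr2:126848542-126848571, minus strand: tctcgaaaaatTTGCACTAttggaatagct
Rtn4, miR-24, chr11:29707896-29707925, plus strand: aaagctctccaCTGAGCCAagtccagagtt
Ddx17, miR-19, chr15:79530095-79530124, minus strand: tgtcacagcagTTTGCACAgcctccaggag
Sp1, let-7, chr15:102408395-102408424, plus strand: tggggctacccCTACCTCAaaggaacagag
Elavl4, miR-27, chr4:110211526-110211555, minus strand: cagaaccgattACTGTGAAgtttgccaaca
Dicer1, let-7, chr12:104702793-104702822, minus strand: tgtacaaccaaCTACCTCAtatcccattca
In all, 21 such sites of 10 families lay in 18 genes, and 7 of them were let-7 sites. The 13 printed sites include 6 let-7 sites that share the same 8 bases.

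Coding peaks were 1.42% of the 711377 peaks of replicate 1 (10093 peaks, 95% Wilson interval 1.39% to 1.45%), 5.42% of the 498071 of replicate 2 (26987 peaks, 5.36% to 5.48%) and 3.83% of the 829936 of replicate 3 (31777 peaks, 3.79% to 3.87%). The mean was 3.56% ± 2.01 (SD, n = 3). These intervals cover the counting of peaks only, since the deposited table lists intervals without reads and the depth is unknown. The intervals of the libraries did not overlap, so the share differed between libraries by far more than counting error. Replicate 1 had the lowest share and the fewest coding peaks despite holding more peaks than replicate 2.

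The strand gave the background for these numbers. With the strand of every peak reversed, the same rule kept 3172, 2289 and 2758 peaks in replicates 1, 2 and 3. Coding peaks were thus 3.18, 11.8 and 11.5 times as many on the strand of the mRNA as on the other strand (8.83 ± 4.89, mean ± SD, n = 3, exact sign-flip permutation test on log2 ratios over the libraries, two-sided p = 0.25). A p of 0.25 is the smallest that 3 libraries can give, and all exact tests below reached no less. The reversed peaks took a like share of each library, 0.446%, 0.460% and 0.332%, whereas the share on the mRNA strand varied widely.

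Width separated the strands further. Among peaks with a deposited width of 86 to 200 nt, replicates 1, 2 and 3 had 5081, 20064 and 24156 on the mRNA strand against 263, 200 and 309 on the other, which is 19.3, 100.3 and 78.2 times as many. Among peaks of at most 85 nt they had 4970, 6839 and 7524 against 2892, 2068 and 2423, or 1.72, 3.31 and 3.11 times as many. The lowest ratio of the class of 86 to 200 nt lay above the highest of the narrow class. Still wider peaks did not continue this. Over 200 nt there were 42, 84 and 97 on the mRNA strand against 17, 21 and 26, or 2.47, 4.0 and 3.73 times as many. The narrow class made up 49.2% of the coding peaks of replicate 1, 25.3% of replicate 2 and 23.7% of replicate 3. The counts of genes and common places below were therefore also made with peaks of 86 to 200 nt alone.

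**Figure D1:**
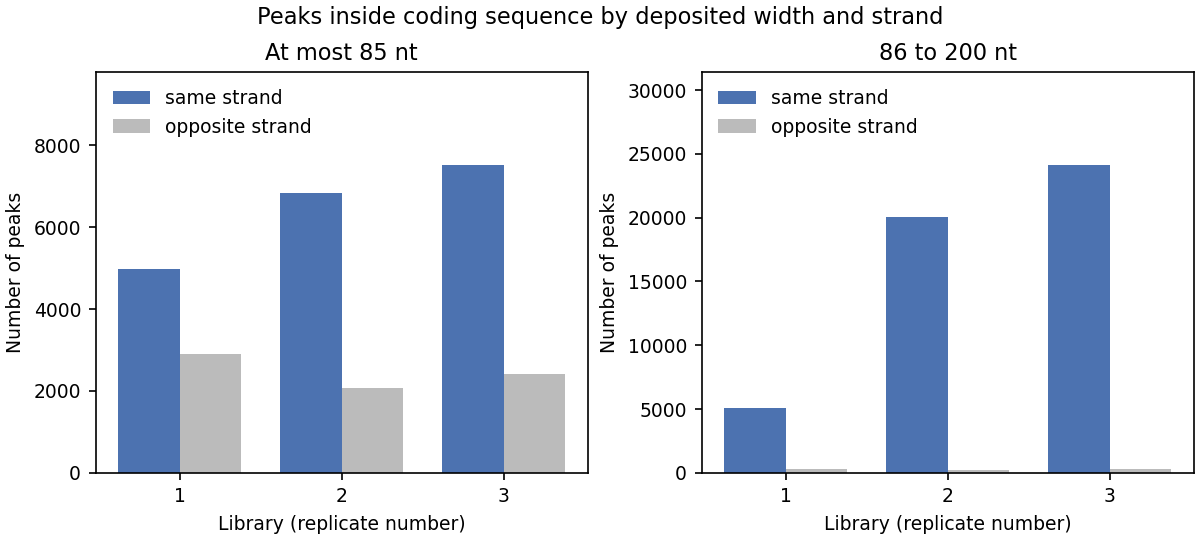
Numbers of peaks inside coding sequence in each library, on the strand of the mRNA and with the strand reversed, for deposited widths of at most 85 nt and of 86 to 200 nt. In the narrow class the reversed-strand peaks reach 2892 beside 4970 in replicate 1, whereas in the wider class they stay at 200 to 309 beside 5081 to 24156.

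Central parts of coding peaks were short. Their median length was 26, 33 and 35 nt in replicates 1, 2 and 3, against 29, 36 and 37 nt for peaks inside 3′UTRs. The middle range between the lower and upper quartile ran from 22 to 35 nt in replicate 1 and from 26 to 43 nt in replicate 3. Only 19 coding peaks in all were wider than 1000 nt. A stretch of 20 nt from the middle of each peak occurred at more than 1 place in the genome for 3.13%, 3.19% and 3.04% of the coding peaks, so most had 1 place in the genome. In addition, 530 coding peaks (0.770%) lay in coding sequence of more than 1 gene and were counted for each.

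Compared with 3′UTRs, coding sequence held fewer peaks. Peaks wholly inside 3′UTRs were 2.50%, 11.1% and 6.66% of replicates 1, 2 and 3, and coding peaks were 0.568, 0.487 and 0.575 times as frequent. Per kb of all bases of each kind, the libraries had 0.313, 0.838 and 0.987 coding peaks against 0.527, 1.64 and 1.64 peaks in 3′UTRs. These bases include those near exon ends, where a central part cannot lie wholly inside. The ratio of coding to 3′UTR density was 0.569 ± 0.0515 (mean ± SD, n = 3). This ratio lay below 1 in 3 of 3 libraries and varied far less between them than the share itself.

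The genes and places hit in common tell how far the libraries repeat each other. Of the coding peaks of replicate 1, 19.4% overlapped one of replicate 2 and 23.3% one of replicate 3, by at least 1 nt of the central parts. Of those of replicate 2, 7.53% were found in replicate 1 and 28.2% in replicate 3, and of those of replicate 3, 7.57% in replicate 1 and 23.9% in replicate 2. With the strand reversed all 6 shares lay between 3.15% and 7.69%. For peaks inside 3′UTRs they lay between 13.2% and 44.9%. Averaged over its 2 partners, the share of a library's coding peaks found again was 0.527, 0.613 and 0.547 times that of its 3′UTR peaks in replicates 1, 2 and 3 (exact sign-flip permutation test, two-sided p = 0.25). The lowest coding shares, those of replicates 2 and 3 found in replicate 1, overlapped the reversed-strand range.

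A coding peak was found in 5452 genes in replicate 1, 7549 in replicate 2 and 8222 in replicate 3, of 21951 protein-coding genes. All 3 libraries had one in 3136 genes, which is 14.3% of the genes, against 210 genes with the strand reversed. Without replicate 1 the count was 5674. Long coding sequences gave more peaks: 36.0% of the genes in the longest of 5 equal classes, with 2290 nt or more, had a peak in every library, but 2.38% of those in the shortest class, with 681 nt or less. The median coding length was 2305 nt for the 3136 genes and 1086 nt for the others. A 3′UTR peak in every library was found in 2082 of the 3136 genes (66.4%) and in 23.7% of all genes, and without replicate 1 the genes with both kinds of peak numbered 4581. In 140 of the 3136 genes no library had a 3′UTR peak.

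Stretches of at least 8 nt covered by coding peaks of all 3 libraries, called common coding regions here, numbered 630. They lay in 477 genes, 2.17% of all genes, and had a median length of 20 nt. With the strand reversed there were 32, and in 3′UTRs there were 3870 with a median of 23 nt. Of the 477 genes, 385 had 1 such region and 33 had 3 or more. Requiring only 2 libraries gave many more: 6893 without replicate 1, 2159 without replicate 2 and 1744 without replicate 3, in 2827, 1425 and 1154 genes. Replicate 1, with the fewest coding peaks, thus set most of the limit. Of the 630 regions, 322 were found with peaks of 86 to 200 nt alone.

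With all 3 libraries required, genes with the greatest total length of common coding regions were led by Sp1, which encodes a zinc finger transcription factor of GC-rich promoters. Its 510 nt in 11 regions rested on 1 peak of replicate 1 with a central part of 1154 nt in exon 3 of 6, and without peaks over 1000 nt Sp1 had 0. In replicates 2 and 3 the 11 regions lay under several peaks with central parts of 24 to 198 nt, the widest over a region of 181 nt, and the whole gene had 3, 19 and 22 coding peaks in replicates 1, 2 and 3. The lengths and their order changed with the libraries required: without replicate 1, Usp34 had 851 nt, Sp1 733, Fn1 712, Map1b 711, Rtn4 698 and Cltc 568. Without replicate 2, Sp1 had 737 nt, Luzp1 435 and Map1b 358, and without replicate 3, Sp1 had 674 nt, Usp34 462 and Map1b 322.

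Map1b, a microtubule-associated protein of growing axons, followed with 153 nt in 7 regions. All 7 lay in exon 5 of 7, with their middles between 16.1% and 76.5% of the coding sequence. The 3 libraries had 21, 47 and 60 coding peaks in Map1b, or 2.82, 6.31 and 8.06 per kb, where all coding sequence had 0.313, 0.838 and 0.987 per kb.

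Usp34, a deubiquitinating enzyme, had 131 nt in 6 regions spread from exon 2 to exon 68 of 80. It also had the most coding peaks by the lowest library, with 30, 56 and 59. Rtn4 (Nogo), a membrane protein of the endoplasmic reticulum that limits axon growth, had 120 nt in 6 regions. It held 9, 29 and 26 coding peaks, and 4 of its regions lay in coding sequence that the chosen principal transcript does not use.

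Fn1, the matrix protein fibronectin, had 114 nt in 4 regions with 12, 40 and 39 coding peaks. Cltc, the heavy chain of clathrin, had 87 nt in 4 regions with 12, 27 and 22. Wnk1, a kinase that controls ion transporters, also had 87 nt in 4 regions, with 12, 30 and 39. Lnpep, an aminopeptidase of recycling vesicles, had 93 nt in 5 regions with 9, 16 and 26 coding peaks. In each of these 4 genes replicate 1 had the fewest peaks.

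Noct (nocturnin), Luzp1 and Vps54, a subunit of a tethering complex for vesicles that return to the Golgi, had 119, 107 and 91 nt. Here wide peaks carried the overlap. In Noct each region lay under a peak with a central part of 141 to 179 nt in replicate 2 or 3, in Luzp1 2 of 3 regions lay under a central part of 867 nt in replicate 1, and in Vps54 all 4 lay under 1 of 242 nt in replicate 2. With peaks of 86 to 200 nt alone these 3 genes had 0, as did Sp1, while Usp34 had 21 of its 131 nt and Lnpep 35 of its 93 nt. Map1b, Rtn4, Fn1, Cltc and Wnk1 then had 133, 97, 114, 65 and 64 nt.

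The genes with the most coding peaks were long. After Usp34 came Ranbp2, a giant nuclear pore protein (29, 48 and 53 in replicates 1, 2 and 3), and Srrm2, a scaffold of splicing speckles (26, 36 and 33). Ahnak, a very large scaffold protein, had 25, 32 and 41, and Mki67, the Ki-67 protein of dividing cells, had 24, 36 and 31. The spectraplakins Dst and Macf1, which link actin to microtubules, had 23, 39 and 49 and 22, 31 and 55. Sptbn1, a spectrin of the membrane skeleton, had 23, 25 and 53. Per kb the order changed, since Dst had 0.780, 1.32 and 1.66 in replicates 1, 2 and 3 and Sptbn1 had 3.16, 3.43 and 7.28. Ahnak and Mki67 had 1 common region each, of 8 and 13 nt, so that many peaks in a gene did not mean that they coincided.

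Dicer1 was the gene of the miRNA machinery with the longest common regions. It had 11, 32 and 20 coding peaks in replicates 1, 2 and 3. The larger region, chr12:104702754-104702832 on the minus strand in exon 21 of 27, was 79 nt long and held the let-7 8mer site printed above. The central parts that covered it were 79, 190 and 129 nt long. A further region of 42 nt, chr12:104706649-104706690 in exon 16, held no match to a listed family. The larger one was lost with peaks of 86 to 200 nt alone, since the deposited interval of replicate 2 was wider than 200 nt, and the smaller one remained. All 3 libraries also had a 3′UTR peak in Dicer1.

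The partners of Ago2 differed from library to library. Tnrc6b and Tnrc6c, scaffold proteins that Ago2 recruits to silence its targets, had 4, 32 and 15 and 2, 31 and 5 coding peaks in replicates 1, 2 and 3, so replicate 2 was high in both. Tnrc6a had 6, 10 and 7. Ago2 itself had 2, 7 and 6, and Ago1 had 0, 1 and 0. Only Tnrc6c among these had a common region, of 17 nt in exon 5 of 22. Lin28a, which blocks let-7 maturation, had 0, 0 and 1 coding peaks. The known coding targets Rb1, a tumour suppressor, and Rbak had 3, 8 and 8 and 1, 1 and 0, and neither had a common region.

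The peaks over each of the printed sites differed in length between libraries. The let-7 site of Jarid2, a subunit of Polycomb repressive complex 2, lay at chr13:44911205-44911212 in exon 13 of 19. Central parts of 23, 42 and 86 nt covered it and shared 13 nt. The miR-27 site of the same gene, in exon 8, lay under central parts of 29, 47 and 42 nt. Jarid2 was the only gene besides Sp1 with 8mer sites of more than 1 listed family in its common regions.

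At Ostm1, a partner of a lysosomal chloride channel, the central parts were 36, 32 and 36 nt and 31 nt of them were common (chr10:42698206-42698236, exon 5 of 6). At Fbn1, the microfibril protein fibrillin, they were 40, 37 and 34 nt with 28 nt in common in the last of 66 exons, at 99.3% of the coding sequence. Trpm7, an ion channel fused to a kinase, had 47, 48 and 34 nt around its miR-130 site with 31 nt in common. Elavl4, a neuronal RNA-binding protein, had 41, 48 and 55 nt around its miR-27 site with 36 nt in common.

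At the miR-15 site of Trp53bp2, a p53-binding protein, the central parts were 19, 32 and 31 nt. At the miR-24 site of Usp34 they were 22, 94 and 48 nt, and at that of Rtn4 36, 66 and 41 nt. The miR-19 site of Ddx17, an RNA helicase, lay under 37, 160 and 46 nt. The let-7 sites of Vps54 and Sp1 lay under 63, 242 and 46 nt and under 1154, 67 and 37 nt. The stated positions of the sites are descriptions of sequence under peaks and do not show which miRNA Ago2 carried there.

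Seed matches of several miRNA families were denser inside coding peaks than in the rest of the same coding sequences. For each of 44 listed miRNAs with a RefSeq sequence, the 7 bases that pair with its seed were counted on the mRNA strand inside the central parts, and the count was divided by that expected from the rest of the coding sequence of the same genes (pseudocount 0.5). The median over the 44 was 0.138, 0.464 and 0.205 on the log2 scale in replicates 1, 2 and 3 (0.27 ± 0.17, mean ± SD, n = 3). Inside 3′UTR peaks, measured the same way, it was 0.33 ± 0.13, and inside coding peaks of reversed strand 0.17 ± 0.29. The 3 values differed by less than their spread over libraries, so the median over families did not set coding peaks apart from the background, and single families are described below against all other 7-mers.

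Above 0 in all 3 libraries were 23 of the 44 families, against 19.9% of the 13996 7-mers with an expected count of at least 5 in each library. Below 0 in all 3 was 1, miR-22-3p. Peaks favoured A and T. The median 7-mer with 3 A or T bases had a mean log2 ratio of -0.06, that with 5 had 0.15 and that with 0 had -0.69. Against the median 7-mer with as many A or T bases as its own match, 35 of the 44 families were higher in mean.

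let-7, the family that marks differentiated cells and is held down by Lin28 proteins, was the highest of the 44. The match CTACCTC was found 53, 263 and 165 times inside coding peaks of replicates 1, 2 and 3, where 20.9, 66.4 and 89.0 were expected. These are ratios of 2.51, 3.94 and 1.85, or 1.40 ± 0.55 on the log2 scale (mean ± SD, n = 3). The lowest library lay above the median over all families in every library. With the strand reversed the counts were 9, 10 and 14 where 5.36, 4.46 and 10.7 were expected, so they too lay above expectation in each library.

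Among all 13996 7-mers the let-7 match ranked 3 by mean ratio. Above it were TACCTCA (log2 1.57 ± 0.39, 61, 267 and 182 matches) and TTACCTC (1.44 ± 0.57, 36, 145 and 86 matches). All 3 words share the 6 letters TACCTC, which pair with positions 2 to 7 of let-7, and overlapping matches were counted for each. Inside 3′UTR peaks the let-7 match ranked 21 with 0.89 ± 0.23. By library the log2 ratio was 1.32, 1.98 and 0.89 inside coding peaks of replicates 1, 2 and 3 and 1.05, 1.00 and 0.63 inside 3′UTR peaks, so it was the higher in coding peaks in 3 of 3 libraries. Over the whole deposited intervals the coding mean was 0.78.

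The form of the let-7 site ordered the ratios. Sites with all of the seed and a following A (8mer) had ratios of 3.03, 6.10 and 3.18 in replicates 1, 2 and 3. Sites without the A (7mer-m8) had 2.20, 2.96 and 1.25, and sites with the A but only positions 2 to 7 (7mer-A1) had 2.61, 2.98 and 1.94. Matches to positions 2 to 7 alone (6mer) had 1.33, 2.21 and 1.34. In each library the 8mer was highest, the 6mer stood below the 7mer-A1, and the order of the 7mer-m8 and 6mer was turned only in replicate 3.

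Few let-7 sites were under a peak in any one place. Of the 2856 let-7 matches in coding sequence, 386 (13.5%) lay wholly inside a coding peak of at least 1 library, 85 (2.98%) of at least 2 and 10 (0.350%) of all 3. Of all 7-nt windows in coding sequence, 6.02%, 0.650% and 0.0312% did. Coding peaks with the match made up 0.525%, 0.967% and 0.519% of the coding peaks of replicates 1, 2 and 3, where 0.187%, 0.254% and 0.272% of all coding windows as long as the median central part held it. The match was thus absent from nearly all coding peaks, whatever its ratio. A match to any of the 44 families was found in 9.99%, 15.6% and 12.1% of the coding peaks and in 7.60%, 10.1% and 10.8% of such windows. The windows came from all genes and had the median length only, while the peaks included longer ones. Shares of peaks and of windows were thus not matched for length or gene.

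Behind let-7 came miR-92a-3p, miR-17-5p, miR-130a-3p and miR-19b-3p, of which miR-17, miR-19b and miR-92a are made from the miR-17-92 cluster of dividing cells. miR-92a-3p had 22, 69 and 50 matches to GTGCAAT and ratios of 2.51, 2.41 and 1.48 (log2 1.06 ± 0.42). miR-17-5p had 23, 135 and 101 matches to GCACTTT and ratios of 1.61, 2.83 and 1.74 (log2 1.00 ± 0.44). miR-130a-3p had 29, 106 and 55 matches to TTGCACT and ratios of 2.48, 2.80 and 1.07 (log2 0.97 ± 0.75). miR-19b-3p had 25, 100 and 90 matches to TTTGCAC, which can overlap the match of miR-130a-3p by 6 letters, and ratios of 1.50, 2.04 and 1.65 (log2 0.78 ± 0.23). All 4 were above 1 in 3 of 3 libraries, miR-130a-3p barely so in replicate 3. let-7 was above miR-17-5p, miR-130a-3p and miR-19b-3p in each library and above miR-92a-3p in replicates 2 and 3 only, while these 4 families overlapped each other in their spread.

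Coding and 3′UTR peaks gave these 4 families much the same mean ratio. Inside 3′UTR peaks their log2 means were 1.25 ± 0.45, 0.94 ± 0.35, 1.00 ± 0.38 and 0.76 ± 0.36, and miR-92a-3p had the highest ratio of all 14431 7-mers tested there. Over the 44 families the means in coding and 3′UTR peaks correlated with Pearson's r = 0.801 and Spearman's rho = 0.809, a description across families that share libraries and base composition. The coding mean was the higher for 24 of the 44.

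At the low end were miR-22-3p (log2 -0.23 ± 0.16), miR-127-3p (-0.26 ± 0.27) and miR-451a (-0.43 ± 1.05), the last a miRNA of red blood cells. miR-451a had 1, 11 and 21 matches, and its place rested on replicate 1: without it the log2 mean was 0.15, and over the deposited interval it was 0.02. miR-22-3p had 32, 141 and 147 matches where 40.8, 145 and 180.2 were expected.

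miR-21a-5p had 14, 33 and 56 matches to ATAAGCT inside coding peaks, where 9.19, 28.5 and 30.04 were expected. The ratios of 1.50, 1.15 and 1.85 gave a log2 mean of 0.56 ± 0.34, at rank 256 of the 13996 7-mers and 11 of the 44 families. Inside 3′UTR peaks it was 0.81 ± 0.44. Of its 941 matches in coding sequence, 92 (9.78%) were under a coding peak of at least 1 library and 1 under peaks of all 3.

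**Figure D2:**
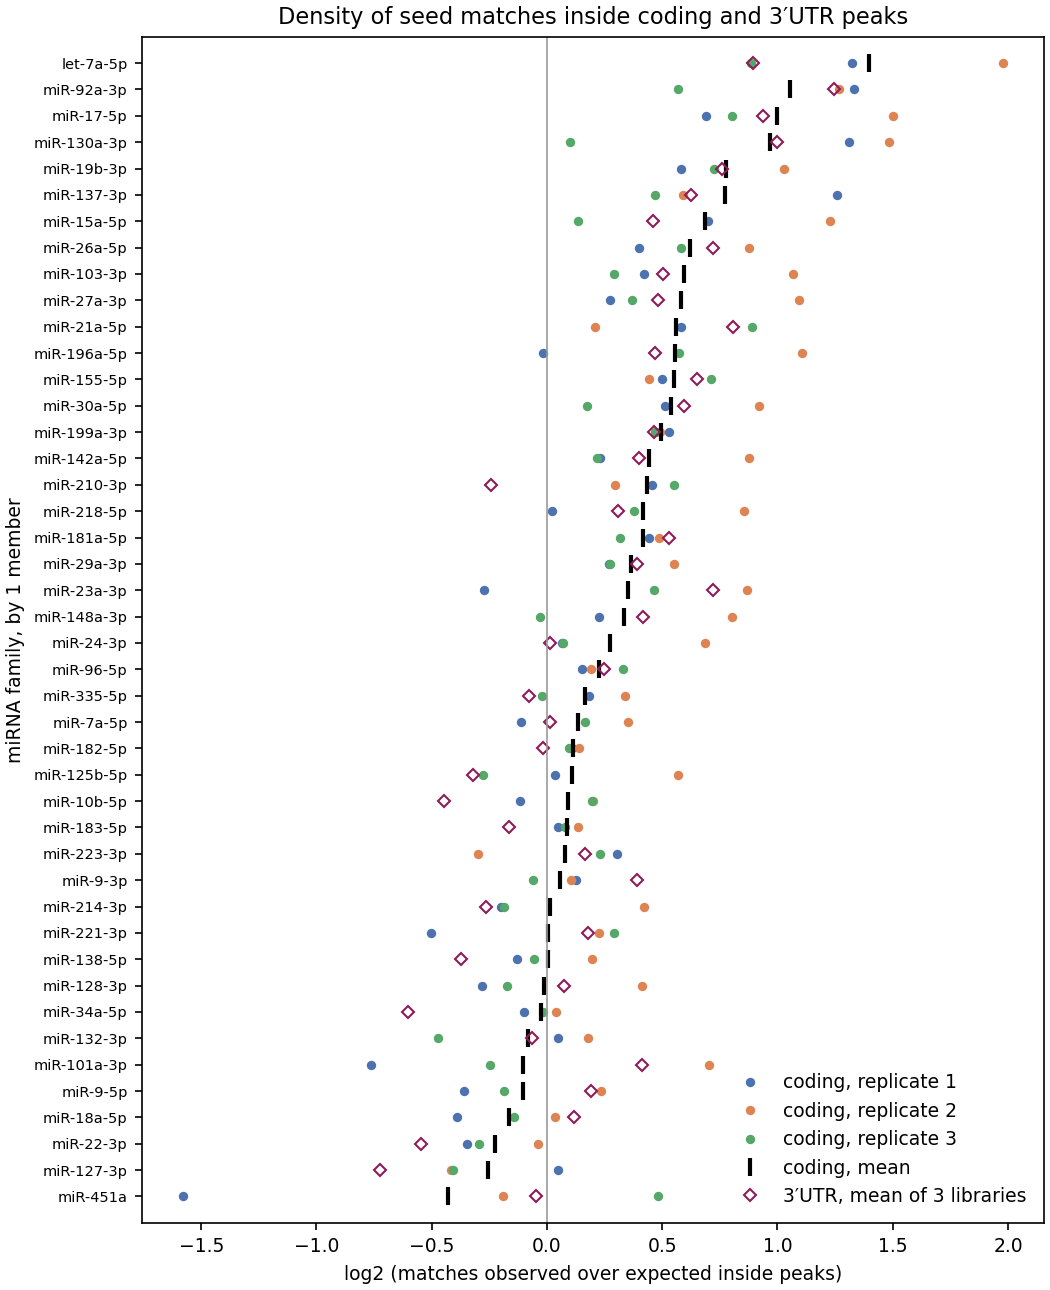
Density of seed matches inside coding peaks of each library (coloured points), their mean (black bar) and the mean inside 3′UTR peaks (open diamonds), as log2 of observed over expected matches, for 44 miRNAs ordered by coding mean. let-7a-5p leads with a mean of 1.40 and replicate 2 is the highest coding library in 4 of the first 5 families.

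The place of the match relative to the centre is a description, since the families shown were chosen by their matches inside the central parts, which lie around the centre. The let-7 match was densest within 10 nt on the 3′ side of the peak centre, with ratios of 3.02, 4.69 and 2.40 in replicates 1, 2 and 3. On the 5′ side of the centre, within 10 nt, they were 2.05, 3.75 and 1.60. Between 20 and 29 nt on the 3′ side they were 0.939, 0.733 and 0.972. Farther out they varied, with means of 1.40 from 70 to 61 nt on the 5′ side and 1.54 from 90 to 99 nt on the 3′ side, and replicate 2 reached 2.42 from 60 to 51 nt on the 5′ side. All 3 libraries thus had their highest value in the same bin next to the centre.

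**Figure D3:**
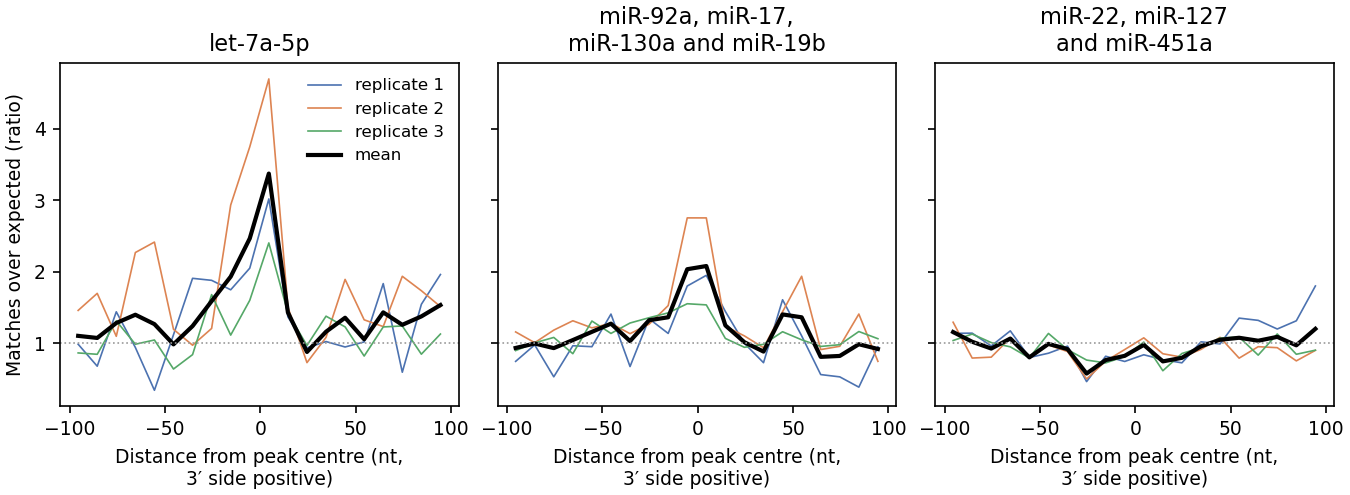
Ratio of observed to expected seed matches by distance from the peak centre in bins of 10 nt, for let-7a-5p, for the next 4 families together and for the lowest 3 together, in each library (thin lines) and as the mean (thick line). let-7a-5p reaches 3.02, 4.69 and 2.40 just 3′ of the centre, and the lowest 3 families have a mean of 0.980 there.

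Common coding regions held listed matches more often than other coding sequence. Of the 630 regions, 60 (9.52%) held a whole match to at least 1 of the 44 families, and 5.83% of all coding windows of the same lengths did. Most regions thus held no match to the listed seeds. let-7 had 10 of the 72 matches. These were 0.350% of its 2856 matches in coding sequence. Of all 7-nt windows in coding sequence, 0.0312% lay inside coding peaks of all 3 libraries.

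A few coding peaks overlapped miRNAs that are themselves encoded inside coding exons. RefSeq places 30 mature miRNAs wholly inside coding sequence on the mRNA strand, and 12 of them (40.0%) had a coding peak over at least 8 nt in 1 library or more, 4 of them (13.3%) in all 3. Of all coding windows of 22 nt, 8.73% and 0.0720% did. The 4 are shown with positions 2 to 8 in capitals.
miR-1306-5p, Dgcr8: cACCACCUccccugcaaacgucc
miR-1306-3p, Dgcr8: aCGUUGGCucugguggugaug
miR-671-5p, Chpf2: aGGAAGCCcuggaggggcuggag
miR-935, Cacng8: cCCAGUUAccgcuuccgcuaccgc
Dgcr8 is the partner of Drosha that recognises miRNA hairpins. Its coding exon 2 carries the Mir1306 hairpin, and its 2 common regions (25 and 21 nt) lay on the 2 arms at chr16:18284288-18284310 and chr16:18284248-18284268. In replicate 2 the arms had separate central parts of 25 and 27 nt, while in replicates 1 and 3 single ones of 58 and 69 nt spanned both.

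At miR-671-5p (chr5:24592132-24592154, in Chpf2, a chondroitin polymerising factor) the central parts were 36, 32 and 50 nt long and covered all of its 23 nt, and that of replicate 2 began at its first base. At miR-935 (chr7:3415120-3415143, in Cacng8, an auxiliary subunit of AMPA receptors) the central parts were 25, 34 and 26 nt long and covered 23, 24 and 22 of its 24 nt. Another 4 miRNAs had peaks in replicates 2 and 3 only. For miR-3071-5p in Rtl1, miR-7653-3p in Tlcd1 and miR-7654-3p in Arglu1, these were 23 to 25 nt long in both libraries. Elsewhere in the annotated Mir7654 gene, at chr8:8690139-8690162 in Arglu1, a common region of 24 nt lay under central parts of 25, 25 and 24 nt in replicates 1, 2 and 3. A peak there can come from the mature miRNA held by Ago2 or from the mRNA, and intervals alone do not tell which.

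Gene lists of known function show which mRNAs carried coding peaks. A coding peak in every library was found in 33 of 39 chromatin regulators (84.6%), 15 of 25 chaperones (60.0%), 21 of 36 RNA-binding and splicing proteins (58.3%) and 19 of 34 translation factors (55.9%). It was found in 12 of 22 genes of the miRNA machinery (54.5%) and 21 of 39 cytoskeletal and motor proteins (53.8%), beside 14.3% of all genes. By median coding length, chromatin regulators (6179 nt), cytoskeletal proteins (3081 nt) and the miRNA machinery (2658.5 nt) belong to the longest class of genes, of which 36.0% had such peaks. RNA-binding proteins (1901 nt) and chaperones (1698 nt) belong to the class with 17.2%, and translation factors (1360.5 nt) to that with 11.1%. The lists were not set against genes of matched expression, which peaks do not give.

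Gene families of many members differed among themselves. Of 83 ribosomal protein genes, 3 (3.61%) had a coding peak in every library and 56 had none in any. Their median coding length is 471 nt, and 2.38% of all genes up to 681 nt had such peaks, a share near that of the list. Among replication-dependent histones it was 5 of 67 (7.46%), with a median of 390 nt, in the same length class. Among protocadherins, with a median of 2796 nt, it was 8 of 69 (11.6%), where 36.0% of all genes with 2290 nt or more had them, and among Zfp zinc finger genes 70 of 394 (17.8%), close to the 17.2% of all genes with 1468 to 2289 nt. Of the 8 genes reported elsewhere as coding targets, 2 did, Dicer1 and Rb1.

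Within the lists the common regions of a gene, summed over its regions, were longest in these genes. Among translation factors they were Eif3a (52 nt), Eif4g1 (42 nt) and Eif4g2 (40 nt), which assemble the initiation complex. Among chaperones they were Cct2, a subunit of the TRiC folding ring (59 nt), Canx and Pdia3 (24 nt each). Among cytoskeletal genes Map1b was followed by Sptbn1 (76 nt) and Stmn2, a neuronal microtubule regulator (43 nt). Among RNA-binding proteins they were Srrm2 (69 nt), the helicase Ddx3x (41 nt) and the spliceosome core protein Prpf8 (36 nt). Among chromatin regulators they were the corepressor Ncor1 (73 nt), the remodelling subunit Arid1a (36 nt) and the histone methyltransferase Kmt2d (35 nt). In the miRNA machinery Dicer1 (121 nt) was followed by Dgcr8 (46 nt) and Tut4, a terminal uridyltransferase (28 nt). Zfp106, Zfp36 and Zfp110 (26, 25 and 20 nt), Rps3 (24 nt) and Hist1h1d (30 nt) led their lists, and no protocadherin had a common region.

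**Figure D4:**
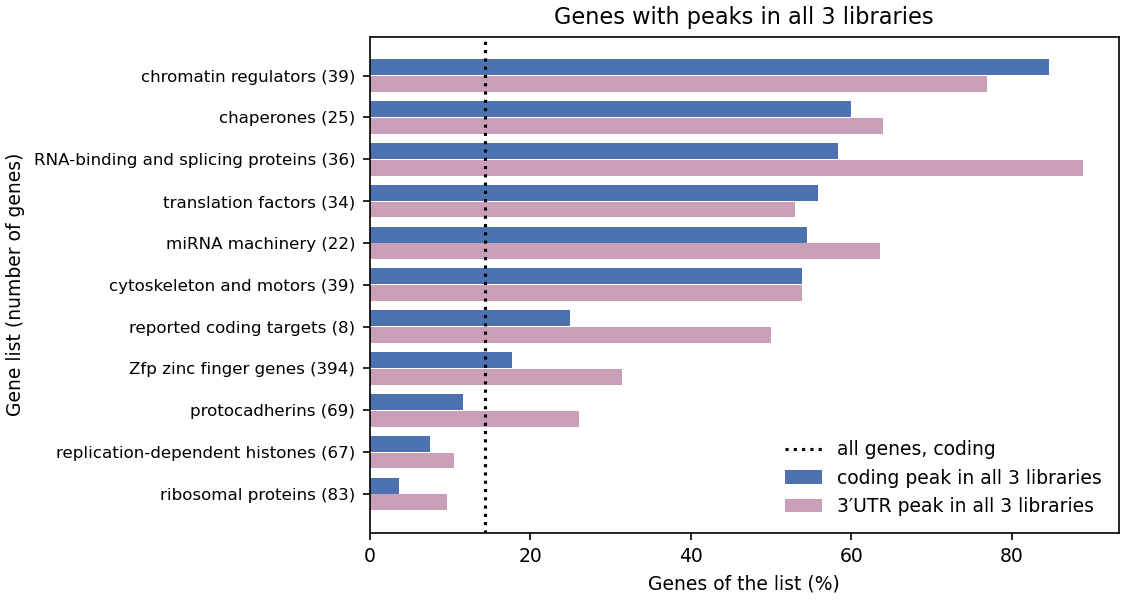
Percentage of the genes of each list that had a coding peak (blue) or a 3′UTR peak (pink) in all 3 libraries, with the number of genes in parentheses and a dotted line at the 14.3% of all genes with a coding peak. Chromatin regulators reach 84.6% and ribosomal protein genes 3.61%.

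Markers were counted to check the label of the cells. Of 18 genes of neuroblastoma and the sympathoadrenal lineage, 16 had a coding peak in at least 1 library and 7 in all, led by Ret (9, 24 and 13 peaks), the receptor tyrosine kinase for GDNF-family factors. Th, the enzyme that starts catecholamine synthesis, had none. Of 20 markers of microglia, astrocytes, hepatocytes and skeletal muscle, 1 had a coding peak in all libraries, Ptprc with 7, 2 and 3. A coding peak in at least 1 library was found for 3 of 6, 3 of 4, 1 of 5 and 2 of 5 of these markers, beside 11248 of all 21951 genes. The share of all genes with a coding peak in all libraries was 14.3%.

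Position along the coding sequence differed little in density. The density of coding peaks in the last of 10 equal steps along the coding sequence was 1.03, 1.32 and 1.06 times that in the first step in replicates 1, 2 and 3 (1.14 ± 0.157, mean ± SD, n = 3, exact sign-flip permutation test on log2 ratios, two-sided p = 0.25). In each library the first step had the lowest density of the 10 steps, with 0.337, 0.838 and 1.07 peaks per kb. Here and for exons below, only eligible positions were counted, those of the principal transcript where a central part of 25 nt fits. These densities are therefore on another scale than those over all coding sequence given above. Replicate 2 had its highest density, 1.10 per kb, in the last step, and replicates 1 and 3 did not.

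Exons with a coding part over 500 and up to 1000 nt held the fewest peaks, with 0.208, 0.528 and 0.588 per kb in replicates 1, 2 and 3, while those over 100 and up to 200 nt held 0.411, 1.21 and 1.47. Olfactory and type 1 vomeronasal receptor genes (1344 genes named Olfr or Vmn1r), which are read in sensory neurons, made up 28.4% of the eligible positions of that class. They had 82, 54 and 54 coding peaks in all and none had one in every library. Without them the class had 0.264, 0.720 and 0.804 per kb, still the lowest in each library. Exons over 1000 nt had 0.912, 0.751 and 0.587 times the density of exons of at most 200 nt (0.750 ± 0.163, exact sign-flip permutation test, two-sided p = 0.25).

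**Figure D5:**
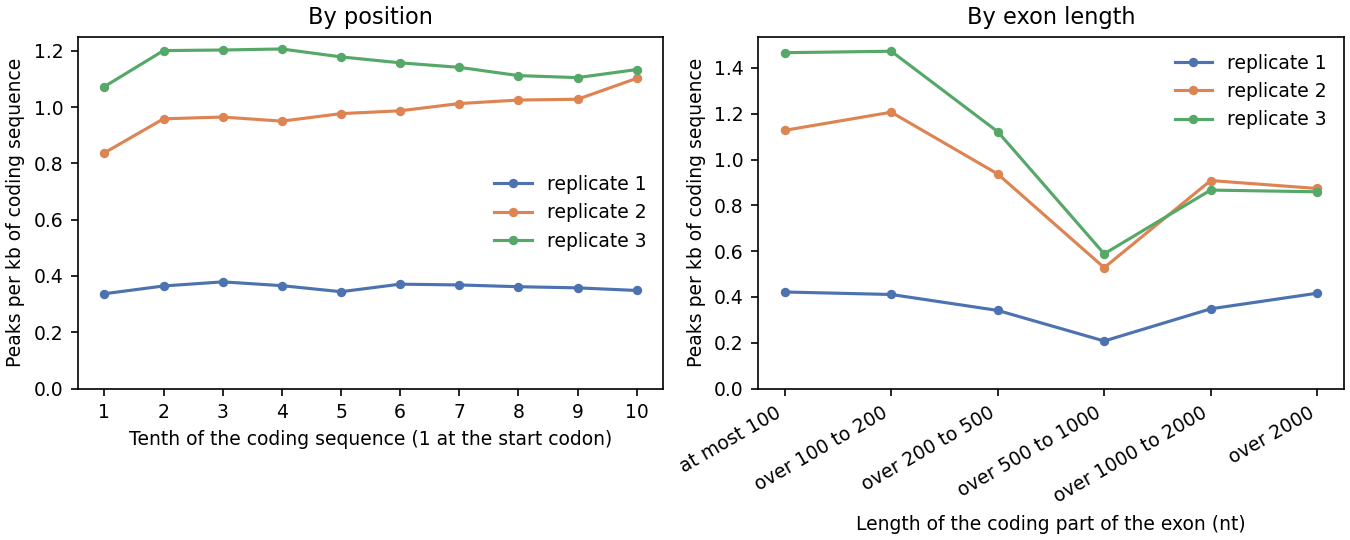
Coding peaks per kb of eligible coding sequence in each library, by position in 10 equal steps along the coding sequence from the start codon (left) and by length of the coding part of the exon (right). Densities are nearly level along the coding sequence and lowest in exons over 500 and up to 1000 nt, at 0.208, 0.528 and 0.588 per kb.

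The sequence under coding peaks was poorer in G and C than its surroundings. It held 47.7%, 48.7% and 48.3% G or C in replicates 1, 2 and 3, against 50.6%, 51.0% and 51.4% in the rest of the coding sequence of the same genes. The difference was -2.77 ± 0.443 percentage points (mean ± SD, n = 3, lower in 3 of 3 libraries, exact sign-flip permutation test, two-sided p = 0.25). In 3′UTRs it was -3.79 ± 0.504. Reading frame left almost no trace, as 35.4%, 33.5% and 35.4% of the 5′ ends of central parts fell on the first base of a codon, 33.0%, 33.6% and 32.5% on the next and 31.6%, 33.0% and 32.1% on the last.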

How the data were processed

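Ago2 was immunoprecipitated from crosslinked N2A cells and its RNA sequenced (HITS‐clip) in 3 libraries of 1 group. The authors deposited the peaks of each library in 1 table with chromosome, start, stop, strand and a score without a stated unit, which was 60 for nearly all peaks and ranked nothing here. FastQC, cutadapt, STAR and the build mm10 are named in the submitters' processing notes. The peak caller and its threshold are not given in the sources used here. Columns of other per-sample values numbered 0.

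Starts were read as counted from 0, and intervals as padded by 30 nt on each side. Genes came from GENCODE M21 and sequence from GRCm38.p6. A coding peak touched no 3′UTR of the same strand. Coding positions lay on 1 principal transcript per gene. Seed matches used a pseudocount of 0.5 and an expected count from windows outside peaks in the same genes, tested on simulated data. Of 50 listed miRNAs, 44 matched a RefSeq sequence. The others were miR-124-3p, miR-320-3p, miR-378a-3p, miR-122-5p, miR-1a-3p and miR-133a-3p. Members, gene lists and miRNAs were chosen with earlier results of these data known. Named genes were the 12 with the longest common regions in sum, the 8 with most peaks by the lowest library, the first 3 of each list and Dicer1, Lin28a, Ago1, Ago2, Tnrc6a, Tnrc6b, Tnrc6c, Rb1 and Rbak. Named sites were 8mer sites in the 12 shortest common regions off chromosome 18, and that of Dicer1. Named families were those with the 5 highest and 3 lowest ratios. A listed chaperone name, Cct6a, was not found. The choice of mature miRNAs in coding exons and of receptor genes was made after the data were seen.

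Wilson intervals are at the 95% level. Alternatives were other rules for coding, width, transcripts, overlap, number of libraries, site type and strand, and each replicate left out. Tables were handled with pandas 2.3.3 and numpy 2.4.6 under Python 3.11.15, tests used scipy 1.17.1 and plots matplotlib 3.10.9.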

Additional observations from a re-analysis of the deposited data

How the results depend on the processing

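No paired analysis was possible because a single group leaves no samples of another group to pair by replicate number, and strands and transcript parts were compared within each library. Of 90 alternative values for the 12 main results, 65 moved by less than the spread between libraries (or, for counts, 1.5 times). No ratio or difference changed direction, and counts and shares have none to change. The 90 include reversed-strand values, which are backgrounds. Among the 65 is the median seed ratio on the reversed strand, 0.17 on the log2 scale, so this total does not measure stability alone. With peaks of 86 to 200 nt only, the share became 7.49%, the strand ratio 65.9, the genes with a coding peak in all libraries 2046, the common regions 322 in 274 genes and the genes that also had a 3′UTR peak 1225. With the whole deposited interval inside coding sequence, the share was 1.97% against 3.56%, genes in all libraries were 1783 and common regions 341 in 263 genes. Leaving out 1 replicate gave 3596 to 5674 genes, 1744 to 6893 common regions in 1154 to 2827 genes and 2276 to 4581 genes with both kinds of peak, since 2 libraries then sufficed. At least 2 of 3 libraries gave 6839 genes and 9371 regions in 3522 genes. Reversed strand gave 210 genes and 32 regions in 29 genes. Comparing deposited intervals raised the shared peaks from 18.3% to 28.5%, and 8mer sites alone raised the median seed ratio from 0.27 to 0.45 on the log2 scale, while 6mer sites or longer gave 0.13 and the deposited interval 0.12. Over the deposited interval the log2 ratios were 0.78 for let-7a-5p, 0.51 for miR-92a-3p, 0.47 for miR-17-5p, 0.48 for miR-130a-3p and 0.44 for miR-19b-3p, against 1.40, 1.06, 1.00, 0.97 and 0.78 over the central part. The libraries' unknown depth limits all counts of shared peaks.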

Other observations

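Some 7-mers that match no listed seed had ratios inside coding peaks near those of miR-17-5p and miR-130a-3p, below let-7a-5p and miR-92a-3p. GTAAATA had 14, 37 and 45 matches in replicates 1, 2 and 3 and a log2 ratio of 0.95 ± 0.03 (mean ± SD, n = 3), at rank 13 of 13996 in coding and rank 2 in 3′UTR peaks, and it varied less between libraries than any family named above. CGAATCA had 18, 31 and 36 matches and 1.00 ± 0.40. Both were picked after their values were seen.

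Mitochondrial coding sequence had 25 coding peaks in the 3 libraries, 17, 1 and 7, and 75 with the strand reversed, 34, 29 and 12, so that in each library the reversed strand held more, unlike nuclear coding sequence. None of the common regions was mitochondrial. In 6 genes with a common coding region no library had a 3′UTR peak: Tat, Epha2, Apob, Fdxacb1, Gm20431 and Gm43191. They include Apob, the apolipoprotein of liver and gut lipoproteins, and Tat, a liver enzyme of tyrosine breakdown.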
